A study of Mus musculus with 2 samples.

Results

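The expression of 41 genes of interferon signalling and of the interferon response was compared between the B16F1-GFP-D and B16F1-GFP-M melanoma lines. The members were taken by gene symbol from the 27790 genes on mouse Agilent arrays, by a rule that holds no measured value but was written with earlier results of these data known. They comprised 12 genes of the signalling pathway, that is, 4 receptor chains, 3 kinases and 5 transcription factors, and 29 interferon-stimulated genes. B16F1 is a mouse melanoma line that grows in C57BL6J mice, and both lines carried a GFP expression plasmid. B16F1-GFP-M was the maternal line. B16F1-GFP-D was 1 clone, grown from GFP-positive cells that had been sorted from pooled organs of vaccinated and control mice still free of tumours 1 year after engraftment. Both lines grew untreated in culture medium with serum, so that neither received added interferon.

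RNA of both lines was hybridised together on 2 two-colour arrays with exchanged dyes, on 1 slide. Array 1 held B16F1-GFP-D in Cy3, and array 2 held it in Cy5. Separate cultures or extracts were not named, so the arrays counted as 1 replicate per line, no test between the lines was possible, and their number limits the precision of each value. Between 44.1% and 60.7% of the spots were well above background, depending on line and array. A gene was taken as detected if, in 1 line or both, its brightest probe stood well above background on each array, as 12540 genes were. Values are log2 ratios between the lines, positive where B16F1-GFP-D was brighter than B16F1-GFP-M, as the mean ± SD of the 2 arrays. This SD holds dye effects and no variation between cultures.

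Interferons are secreted proteins that warn cells of infection. Type I interferons bind the receptor pair Ifnar1 and Ifnar2, and interferon gamma binds Ifngr1 and Ifngr2. The kinases Jak1, Tyk2 and Jak2 on these receptors phosphorylate STAT proteins, which enter the nucleus with or without Irf9 and switch on interferon-stimulated genes through 2 kinds of DNA element. The interferon-stimulated response element is bound by complexes that hold Stat2 and Irf9 and by other IRF proteins, and the gamma-activated site is bound in the response to interferon gamma. In melanoma, this response is known for its roles in antigen presentation and in the recruitment of T cells.

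The sequences before these genes were examined for the core letters of both elements. RefSeq promoter windows on GRCm38.p6, from 250 bases before to 50 bases after the transcript start, were at hand for 35 of the 41 members. The letters GAAANNGAA, the core of the response element, stood on either strand in 18 of 25 windows of the interferon-stimulated genes (72.0%), in 1 of 14 windows of the signalling genes (7.14%, that of Stat2) and in 8.56% of all 32851 windows. The letters TTCNNNGAA of the gamma-activated site stood in 6 of 25, 3 of 14 (21.4%) and 8.30% of these windows. Matches may overlap each other, and a match describes letters and not a bound site. The windows below belong to the 5 members with a window that differed 1.5-fold or more on each array, and to Isg15, whose name stands for interferon-stimulated gene. Capitals mark the letters of GAAANNGAA on either strand, so that a match of the other strand appears as its reverse complement.
Cxcl10, chr5:92348840-92349139, minus strand: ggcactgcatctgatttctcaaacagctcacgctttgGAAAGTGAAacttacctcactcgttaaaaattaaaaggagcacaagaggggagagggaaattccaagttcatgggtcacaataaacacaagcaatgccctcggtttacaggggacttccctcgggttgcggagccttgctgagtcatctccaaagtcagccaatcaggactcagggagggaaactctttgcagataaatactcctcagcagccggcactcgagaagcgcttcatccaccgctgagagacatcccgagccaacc
Bst2, chr8:71537423-71537722, minus strand: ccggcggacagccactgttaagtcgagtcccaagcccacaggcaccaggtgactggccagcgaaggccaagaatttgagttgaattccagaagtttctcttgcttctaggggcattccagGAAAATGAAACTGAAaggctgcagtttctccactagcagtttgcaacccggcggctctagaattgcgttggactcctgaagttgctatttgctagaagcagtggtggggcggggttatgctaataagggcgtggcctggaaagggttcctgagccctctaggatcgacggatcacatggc
Irgm1, chr11:48871371-48871670, minus strand: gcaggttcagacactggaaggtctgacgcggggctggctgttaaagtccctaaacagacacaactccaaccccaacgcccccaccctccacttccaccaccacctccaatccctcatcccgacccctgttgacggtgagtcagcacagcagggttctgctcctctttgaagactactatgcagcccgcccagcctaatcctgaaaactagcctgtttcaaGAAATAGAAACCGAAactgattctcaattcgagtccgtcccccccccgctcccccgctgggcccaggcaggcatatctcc
Igtp, chr11:58199306-58199605, plus strand: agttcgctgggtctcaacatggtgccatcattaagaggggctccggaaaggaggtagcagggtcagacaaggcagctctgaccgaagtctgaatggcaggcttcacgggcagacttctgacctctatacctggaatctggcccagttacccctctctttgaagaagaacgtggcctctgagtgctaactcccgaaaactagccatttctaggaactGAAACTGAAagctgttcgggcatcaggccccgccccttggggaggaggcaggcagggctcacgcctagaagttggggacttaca
Gbp2, chr3:142620413-142620712, plus strand: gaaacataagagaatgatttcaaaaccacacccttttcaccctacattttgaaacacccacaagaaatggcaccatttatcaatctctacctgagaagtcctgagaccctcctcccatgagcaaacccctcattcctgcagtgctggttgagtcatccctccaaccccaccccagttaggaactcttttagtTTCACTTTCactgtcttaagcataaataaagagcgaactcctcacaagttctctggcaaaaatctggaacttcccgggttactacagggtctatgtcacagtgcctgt
Isg15, chr4:156200769-156201068, minus strand: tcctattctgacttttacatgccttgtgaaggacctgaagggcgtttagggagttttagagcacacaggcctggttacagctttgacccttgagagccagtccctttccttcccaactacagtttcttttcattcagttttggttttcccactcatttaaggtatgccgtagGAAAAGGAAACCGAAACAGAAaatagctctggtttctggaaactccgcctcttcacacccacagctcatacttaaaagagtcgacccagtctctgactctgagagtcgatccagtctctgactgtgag

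The match in the Cxcl10 window began at position -213, counted from the first transcribed base as 0, that of Gbp2 at -58 and that of Igtp at -34. Bst2, Irgm1 and Isg15 held overlapping matches. These genes share the core letters, and yet the ratios given for them below lie on both sides of 0. Among the detected interferon-stimulated genes with a window, 17 had a match of GAAANNGAA, with a median log2 ratio of 0.13. Their range was from -0.78 to 2.43, and the 4 without this match had a median of 0.14. For TTCNNNGAA, 6 had a match, with a median of 0.27 and a range from 0.09 to 0.75. The 15 without it had a median of 0.06. Neither difference was tested.

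Of the 41 members, 38 were detected. Mx1, Ifitm1 and Ifi44 were not well above background on both arrays in either line. Only Cxcl10 passed 2-fold on both arrays with 1 sign, being higher in B16F1-GFP-D. By this rule of size, which stands in for a test, 1 of 38 detected members (2.63%) was called higher and 0 were called lower. Of all detected genes, 3.09% were called higher and 1.94% lower, together 5.02%, so the share of called members was not above that of all genes. At 1.5-fold, 5 members were higher (Cxcl10, Bst2, Irgm1, Igtp and Rtp4) and 1 was lower (Gbp2), where 8.77% of all detected genes were higher and 7.02% lower. The signs leaned one way: 25 members (65.8%) had a positive ratio on both arrays, 10 (26.3%) had a negative one and 3 differed in sign, whereas 41.01% of all detected genes were positive on both. The lean was small, since the median over the detected members was 0.13, against -0.01 over all detected genes. Within 0.50 of 0 lay 32 of the 38 members, and 9311 of all 12540 detected genes. The pooled SD between the arrays was 0.14 for these members.

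**Figure D1:**
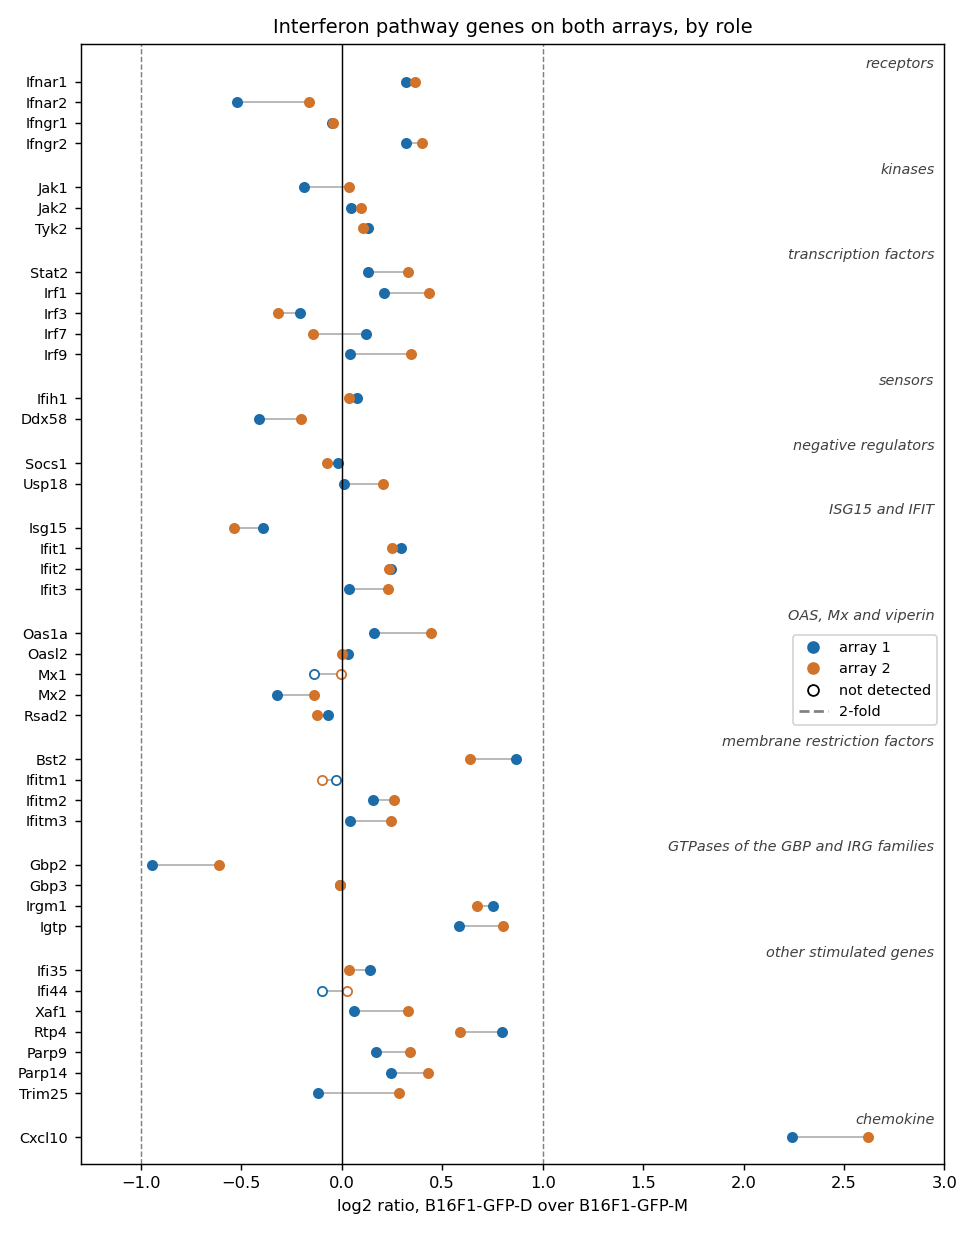
Log2 ratio (B16F1-GFP-D relative to B16F1-GFP-M) for the 41 genes, grouped by role, on array 1 (blue) and array 2 (orange). Open circles mark the 3 genes not detected and dashed lines mark 2-fold. Cxcl10 lies past 2-fold on both arrays, while Bst2, Irgm1, Igtp and Rtp4 on the right and Gbp2 on the left lie short of it.

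All 4 receptor chains were detected in both lines on both arrays, and none was called. Ifnar1, a chain of the type I receptor, had log2 ratios of 0.32 and 0.37 on arrays 1 and 2. Its partner Ifnar2 had -0.52 and -0.17, and its other probe had a mean of -0.43. The chains of this receptor thus lay on opposite sides of 0 on both arrays, each by less than 1.5-fold. Of the receptor for interferon gamma, the ligand-binding chain Ifngr1 had -0.05 and -0.04, close to equal intensity in both lines. The signalling chain Ifngr2 had 0.32 and 0.40 with its brightest probe and a mean of 0.75 with its other probe, so that the size of its difference, though not its direction, depended on the probe. Ifnar1, Ifnar2 and Ifngr2 lie near each other on chromosome 16, and their ratios did not share a direction.

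The 3 receptor-bound kinases were detected, and none was called. Jak1, which serves both receptors, had log2 ratios of -0.19 and 0.03, on either side of 0. Jak2, which acts at the interferon gamma receptor, had 0.05 and 0.09, and Tyk2, which acts at the type I receptor, had 0.13 and 0.11. The other probe of Jak2 had a mean of -0.10.

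The 5 transcription factors lay within 0.50 of 0 on each array. Stat2, which occurs mainly in the type I pathway, had 0.13 and 0.33, and Irf9, its DNA-binding partner, had 0.04 and 0.34. The other detected probe of Irf9 had 0.05 and -0.08, with no common direction. Irf1, itself induced by interferon gamma and an activator of further genes, had 0.21 and 0.44, and its other probe had a mean of 0.06. Irf3, which switches on interferon genes after viral sensing, was below 0 on both arrays, with -0.21 and -0.32. Its other, dimmer probe gave a mean of 0.08, so that the direction for Irf3 rested on the brightest probe. Irf7, which amplifies type I interferon production, had 0.12 and -0.14 and no common direction. Over the 12 signalling members, the median was 0.09.

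Of the interferon-stimulated genes, the chemokine stood apart. Cxcl10 encodes a chemokine that draws T cells and natural killer cells through the receptor Cxcr3. Its probe, on mm9 chromosome 5 from 92775781 to 92775840, had a normalised log2 intensity of 9.30 and 9.31 in B16F1-GFP-M and of 11.54 and 11.93 in B16F1-GFP-D on arrays 1 and 2. Its signal was well above background in both lines on each array. The log2 ratios were 2.24 and 2.62, a mean of 2.43 ± 0.27 or 5.39-fold higher in B16F1-GFP-D. This placed it at rank 7 among the 387 genes called higher. Whether more cells held the transcript or each cell held more of it cannot be told apart in RNA of whole cultures. Cxcl9 and Cxcl11, which encode the other ligands of Cxcr3 and whose probes lie beside that of Cxcl10 on chromosome 5, were not well above background in either line on either array.

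**Figure D2:**
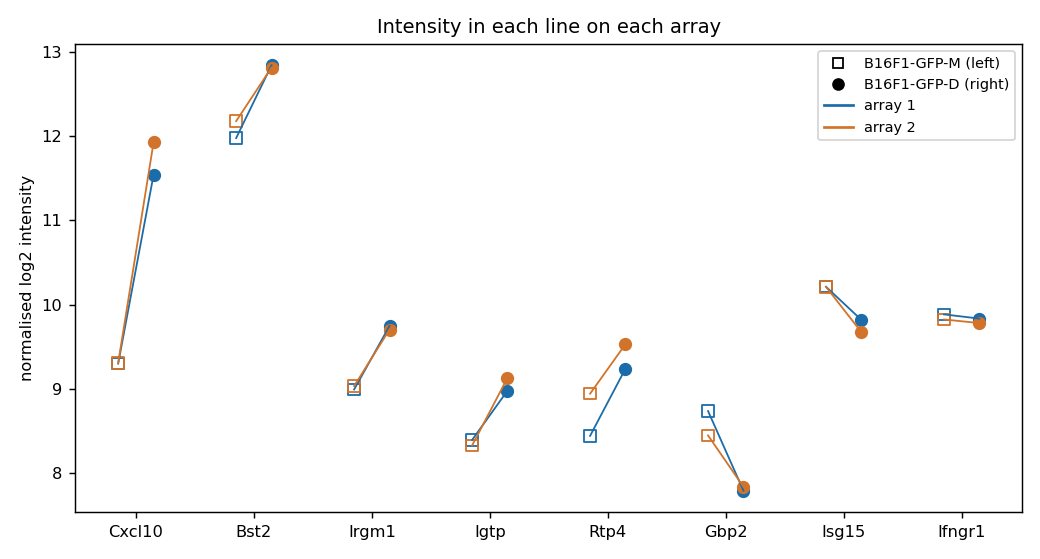
Normalised log2 intensity of 8 genes in B16F1-GFP-M (squares, left) and B16F1-GFP-D (circles, right) on array 1 (blue) and array 2 (orange), each pair joined by a line. The step of Cxcl10 is 2.24 and 2.62, that of Ifngr1 is close to 0, and Gbp2 and Isg15 step down. Heights of different genes are those of different probes and cannot be compared.

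The GTPases of the GBP and IRG families, which attack the vacuoles of intracellular microbes and are strongly induced by interferon gamma, lay on both sides of 0. Irgm1, a regulator of the IRG proteins, had log2 ratios of 0.75 and 0.67, and its other detected probe had a mean of 0.73. Igtp, also called Irgm3, had 0.59 and 0.80. Both were thus about 1.6-fold higher in B16F1-GFP-D, at 1.64-fold and 1.62-fold. Gbp2, a guanylate-binding protein, had the lowest value of all members, with normalised log2 intensities of 8.74 and 8.45 in B16F1-GFP-M and of 7.79 and 7.84 in B16F1-GFP-D. Its log2 ratios were -0.94 and -0.61, a mean of -0.78 ± 0.24 or 1.71-fold higher in B16F1-GFP-M. With the log ratio of the scanner software, its mean was -1.09, although it was still not past 2-fold on each array. Gbp3, a paralogue whose probe lies on chromosome 3 like that of Gbp2, had -0.01 on both arrays.

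Among the membrane restriction factors, Bst2, or tetherin, which holds budding viruses at the cell surface, had normalised log2 intensities of 11.98 and 12.18 in B16F1-GFP-M and of 12.84 and 12.82 in B16F1-GFP-D. Its log2 ratios were 0.86 and 0.64, a mean of 0.75 ± 0.16 or 1.68-fold higher in B16F1-GFP-D. Ifitm2 and Ifitm3, which block the entry of viruses, had means of 0.21 and 0.14. Ifitm1 was not detected. The Ifitm transcripts are similar to each other, and binding of one to the probe of another was not tested.

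Isg15 encodes a ubiquitin-like protein that is attached to other proteins during the response. Its normalised log2 intensity was 10.21 on both arrays in B16F1-GFP-M and 9.82 and 9.67 in B16F1-GFP-D. The log2 ratios were thus below 0 on both arrays, at -0.39 and -0.54. The IFIT proteins bind foreign RNA and are commonly induced together with Isg15. They lay on the other side of 0 with smaller values as processed here, Ifit1 with a mean of 0.27, Ifit2 with 0.24 and Ifit3 with 0.13, each positive on both arrays. Ifit1 was dim. With the scanner ratio, Ifit1 had 0.64 and Isg15 had -0.53, and with an offset of 0 these were 0.52 and -0.51. The lower level of Isg15 was thus not shared by the IFIT genes.

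The OAS, Mx and viperin genes, the best known antiviral effectors, differed little. Oas1a, which makes the messenger of RNase L, had log2 ratios of 0.16 and 0.44, and Oasl2, a relative, had 0.03 and 0.00. Rsad2, or viperin, which makes a chain-terminating nucleotide, had -0.07 and -0.12. Mx2, a dynamin-like GTPase against viruses, had -0.32 and -0.14, and its paralogue Mx1 was not detected. The median of the 4 detected genes was -0.04.

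Sensors and feedback genes were also near 0. Ifih1, or MDA5, a sensor of long double-stranded RNA, had 0.08 and 0.04. Ddx58, or RIG-I, a sensor of uncapped RNA ends, had -0.41 and -0.20 with its brightest probe, but a mean of 0.10 with its other detected probe, so that no direction can be given. Socs1, which blocks the JAK kinases, had -0.02 and -0.07 and was well above background on 1 array in B16F1-GFP-D and on 2 in B16F1-GFP-M. Usp18, which removes Isg15 from proteins and blocks the type I receptor, had 0.01 and 0.20.

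Of the 7 other interferon-stimulated genes, 6 were detected and none was lower on both arrays. Rtp4, a chaperone of receptors that is a common marker of the response, led with normalised log2 intensities of 8.44 and 8.94 in B16F1-GFP-M and of 9.24 and 9.53 in B16F1-GFP-D. Its log2 ratios were 0.80 and 0.59, a mean of 0.69 ± 0.15. Parp14 and Parp9, ADP-ribosyltransferases, had means of 0.34 and 0.25, each positive on both arrays. The other detected probe of Parp14 had 0.08 and -0.02, so that its value depended on the probe. Xaf1, a pro-apoptotic protein, had a mean of 0.20, and Ifi35, a leucine zipper protein, had 0.09. Trim25, the ubiquitin ligase that acts on RIG-I, had -0.12 and 0.29 and no common direction.

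The signalling and the interferon-stimulated members were then set against each other. The median over the 26 detected interferon-stimulated genes was 0.14, against 0.09 over the 12 signalling genes, a difference of 0.04, which is less than the SD of 0.11 of this difference between the arrays. The medians of the stimulated genes were 0.07 on array 1 and 0.24 on array 2. The middle of both groups was spread alike, with a median size of 0.24 for the stimulated and 0.21 for the signalling genes. The extremes were -0.78 and 2.43 among the 26 stimulated genes and -0.34 and 0.36 among the 12 signalling genes, and the difference in spread was not tested. All 6 members past 1.5-fold, of the 38 detected, were interferon-stimulated genes. Of all detected genes, 15.8% were past it, a share at which few of the 12 signalling genes would be.

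**Figure D3:**
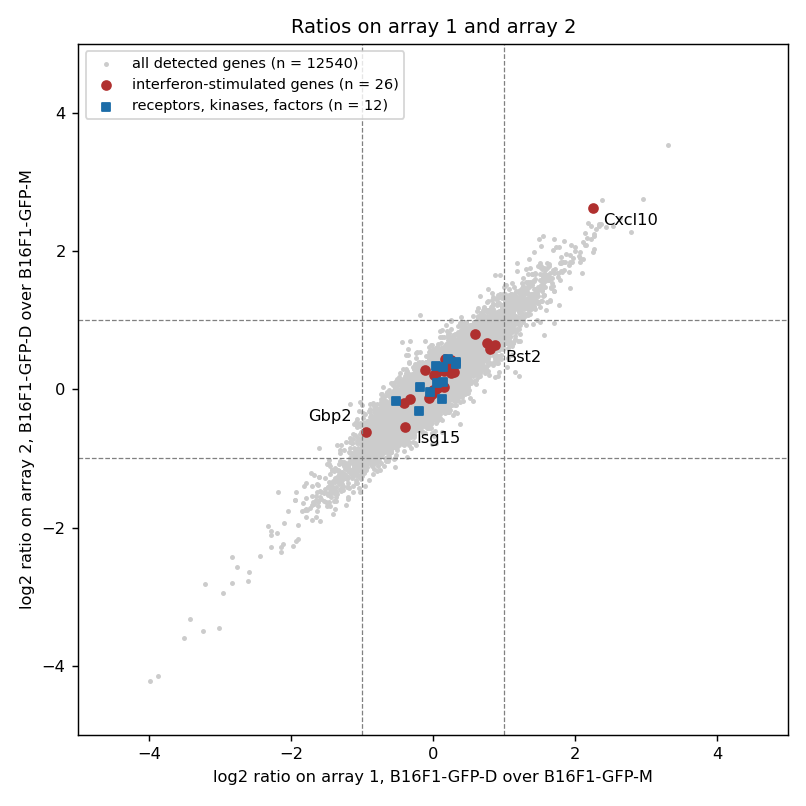
Log2 ratio (B16F1-GFP-D relative to B16F1-GFP-M) on array 2 against array 1 for the 12540 detected genes (grey), the 26 detected interferon-stimulated genes (red) and the 12 signalling genes (blue squares), with dashed lines at 2-fold. Apart from Cxcl10, the members lie in the central cloud, with Gbp2 at its lower and Bst2 near its upper side.

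A further 97 genes of the pathway on the arrays were examined in the same way, of which 62 were detected. The 8 interferon genes of this list, which included Ifnb1 and Ifng but not all mouse interferons, were not detected. The listed Ifna1 and Ifnl2 were not matched on the array. Ifnb1 was well above background on 1 array in B16F1-GFP-M only, and Ifng on none in either line. Irf2, a repressor that competes with Irf1, had log2 ratios of 0.01 and -0.19. At 2-fold on each array, 1 of the 62 was higher and 1 lower, against the shares of 3.09% and 1.94% of all detected genes. The gene that was higher was Ifi47, an IRG GTPase like Irgm1 and Igtp, with 1.00 and 1.12. The gene that was lower was Irf2bp2, which encodes a corepressor bound by Irf2, with -1.79 and -1.84, or 3.52-fold higher in B16F1-GFP-M. The median over the 62 genes was 0.04. On both arrays, 30 (48.4%) were higher and 23 (37.1%) lower, against 41.01% and 42.77% of all detected genes.

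Markers were used to see which cells the RNA came from. All 8 melanocyte markers, among them Tyr, Dct, Pmel and Mlana, were detected in both lines. Their median log2 ratio was -0.14, with 4 lower and 2 higher on both arrays. The lowest was that of Mitf, with -0.95 and -0.89, and Dct had -1.10 and -0.47. The part of these marker differences in the values of the interferon genes was not tested. Of 10 leukocyte markers 4 were detected (Cd68, Lyz2, Cd3e and Fcer1g), with a median log2 ratio of -0.06 and none called. Lyz2 and Fcer1g were well above background on both arrays in both lines. The other leukocyte markers (Ptprc, Itgam, Cd79a, Tyrobp, Laptm5 and Siglech) and the 5 endothelial markers were not detected. Of 6 fibroblast markers, Col1a1 and Col1a2 were detected, with means of 0.40 and -0.33, and Dcn, Lum, Pdgfra and Thy1 were not.

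**Figure D4:**
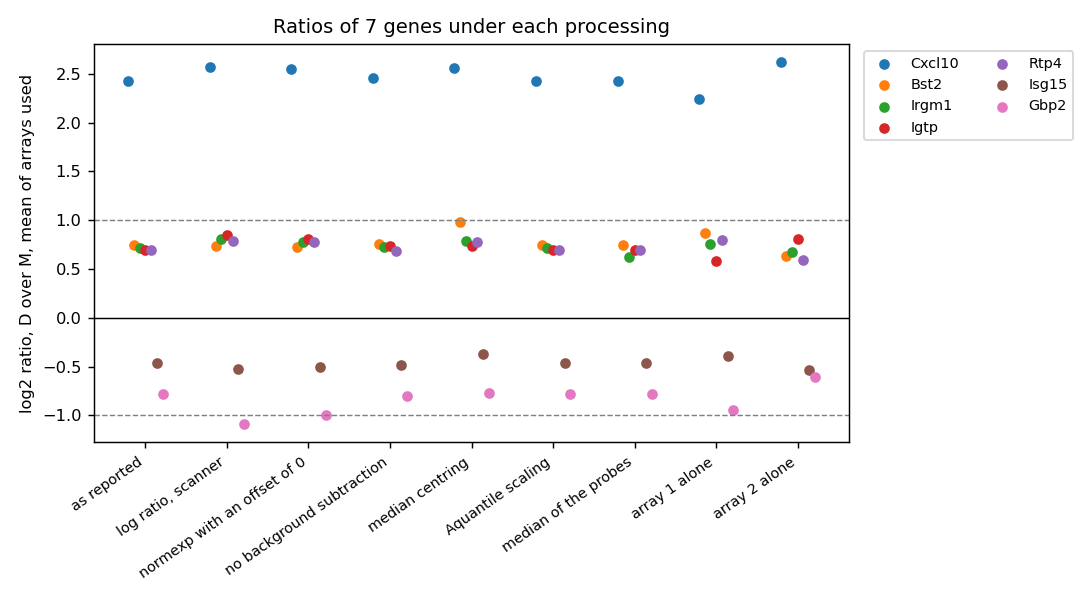
Log2 ratio of 7 genes as reported and under 8 alternative ways of processing, as the mean of the arrays used, with dashed lines at 2-fold. The mean of Cxcl10 stays between 2.24 and 2.62, the order of Bst2, Irgm1, Igtp and Rtp4 changes within 0.59 to 0.99, and Gbp2 reaches -1.09 with the log ratio of the scanner software. With median centring, the mean of Cxcl10 joins unlike values of 1.21 on array 1 and 3.91 on array 2.

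The call of Cxcl10 held under all 11 alternatives of processing tried for single members and at 3-fold. Several of these could not have changed it. Aquantile scaling and leaving out the filter do not alter its ratios, and the rule already requires each single array. Cxcl10 has 1 probe, so the probe median is its own value, and the series value table repeats the scanner ratios. Aquantile scaling and other filters cannot change the direction of any member. The direction of 30 of the 38 detected members was the same under the 11 alternatives, and 8 changed sign. Of these, 7 had a mean within 0.10 of 0 (Ifngr1, Jak1, Jak2, Irf7, Socs1, Gbp3 and Trim25), and the other was Ddx58.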

How the data were processed

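The lines were compared on 2 two-colour arrays with exchanged dyes. The deposited intensities of spots and local background were measured by the authors with Agilent Feature Extraction 10.7.3.1, as the submitters' processing notes give it, and were not normalised. The deposited log10 ratios of Cy5 over Cy3 and the series value table, which holds the same values rounded, were used as alternatives. Other deposited columns used were the flags of the software.

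Control spots and spots marked as outliers (143 and 176 per array) were dropped from the analysis, which began with 43379 other spots. Intensities were corrected with limma 3.58.1 (R 4.3.3) by normexp with an offset of 50, which draws ratios of dim spots towards 0, and normalised by loess within each array. Spots of a probe were averaged and each of 27790 genes was read from its brightest probe. Of 28069 probes with a RefSeq accession, 27192 matched the table of GRCm38.p6 for names. Probe positions follow the array files (mm9). The position of a probe within its transcript was not analysed here. A detected gene was called if both arrays gave a difference of 2-fold or more with 1 sign. With 1 replicate per line this is a rule of size and no test was made.

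All 41 members are named. Of the 97 other pathway genes, those called and Irf2, Ifnb1 and Ifng are named, and beside these Cxcl9, Cxcl11 and the further genes of the closing section (IRG genes and genes past 1.5-fold), which were chosen after their values were seen. A further gene of this rule is not reported here. A further 5 listed symbols were not matched on the array. The members and lists were chosen with earlier results of these data known. The alternatives were other background corrections, median centring, Aquantile scaling, other filters, the probe median per gene, single arrays and other fold thresholds. The calls were tested on simulated arrays, where 16 of 21 detected probes changed 3-fold, 2 of 13 changed 2-fold and none of 22221 unchanged probes were called. The noise of the simulated arrays was a setting, so these counts do not measure error rates of the real arrays. Counts and plots used matplotlib 3.10.9, pandas 2.3.3 and numpy 2.4.6 under Python 3.11.15.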

Additional observations from a re-analysis of the deposited data

How the results depend on the processing

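The number of detected members was 38 and lay between 37 and 41 under the alternatives. Cxcl10 was the only member called under each of them at 2-fold or 3-fold, and at 1.5-fold 5 members were higher and 1 was lower. With detection also taken from that array alone, which adds members (41 on array 1 and 40 on array 2), the median of the stimulated members was 0.04 on array 1 and 0.23 on array 2. The median of the signalling members was 0.09, and became 0.081 with the log ratio of the scanner software and with the series value table, 0.12 with median centring and 0.038 with the median of the probes. The difference between both medians was -0.04 with array 1 alone and 0.13 with array 2 alone, so that its sign depended on the array.

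The share of all detected genes called was 5.02% as reported. It was 10.8% with the scanner ratio or the series value table, 8.59% with an offset of 0 and 0.51% with median centring. With array 2 alone it was 5.40%, at 1.5-fold 15.8% and at 3-fold 0.98%. Of the other pathway genes, 1 was called higher and 1 lower. The counts were 4 and 2 with the log ratio of the scanner software, with the series value table and with an offset of 0, both 0 with median centring, and 6 and 5 at 1.5-fold. With array 2 alone 3 were higher, and at 3-fold 0 were higher. Their median of 0.04, an alternative chosen after seeing the data, became 0.0099 with the scanner ratio or the series value table, 0.066 with an offset of 0, 0.15 with median centring, 0.0196 when no background was subtracted, 0.0038 without a filter, 0.078 with the median of the probes, 0.0145 with array 1 alone and 0.053 with array 2 alone. The causes were not tested. By construction, median centring leaves the dependence of the dyes on brightness in each array.

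No paired analysis was possible because the arrays are a dye swap of 1 replicate per line. No difference has a replicate check, and dim genes such as Socs1, Irf7 and Ifit1 are limited by their signal over background. A true 2-fold difference lies at the threshold itself, so it can easily be missed. In simulated arrays, whose noise was set and not measured, 2 of 13 such differences were called.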

Other observations

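The IRG GTPases were described further after their values had been seen. Besides Irgm1, Igtp and Ifi47, Tgtp1 had log2 ratios of 0.59 and 0.66 and Irgm2 had 0.35 and 0.63. All 5 detected IRG genes thus had positive ratios on both arrays, as did 41.01% of all detected genes. Tgtp1 was well above background on 2 arrays in B16F1-GFP-D but on 1 in B16F1-GFP-M. It thus passed the detection rule only through the line where it was higher. Tgtp1 has near-identical copies, whose share of its signal was not tested. Iigp1 was not detected. The 5 genes lie in 2 groups on chromosome 11, and of the other genes with a probe within 200000 bases, 6 detected around Irgm1, Tgtp1 and Ifi47 had a median of -0.27, between -1.16 for Zfp62 and 0.73 for the probe named Cdk2ap1. The 8 detected around Igtp and Irgm2 had a median of 0.11, between -1.45 for 4930438A08Rik and 0.63 for Sh3bp5l. The median over the 1041 detected genes of chromosome 11 was 0.02.

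Also chosen after their values had been seen were the other pathway genes past 1.5-fold on each array but not past 2-fold. The higher ones included Pml and Sp100, which encode proteins of nuclear bodies, with means of 0.96 and 0.86, and Ifi30, a lysosomal thiol reductase, with 0.91. The others were Ifnlr1, a receptor chain for type III interferons, with 0.86, and Tgtp1, which was detected only through B16F1-GFP-D. The lower ones were Isg20, an exonuclease, with -0.83, Tlr4 and its adaptor Myd88, with -0.67 and -0.62, and Uba7, the activating enzyme for Isg15, with -0.59. With those past 2-fold, 6 of the 62 detected other pathway genes were higher and 5 lower, against 8.77% and 7.02% of all detected genes. These counts lay near the shares of all genes.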
